A study of Rattus norvegicus with 6 samples.

Results

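The genes described here are 32 members of the interferon response and of class I antigen presentation, in kidney cortex taken from 6 male rats. They were chosen by name, and their probes are the array's non-control probes whose RefSeq transcript belongs to a member. In all, 57 of 61537 probes matched 31 of the 32 genes. Xaf1, which encodes a binding partner of the apoptosis inhibitor XIAP, had no matched probe. The control group was 3 rats given water, and the treated group was 3 rats dosed daily with the solvent dipropylene glycol (DPG; 1000 mg/kg/day), both for 4 weeks. The rats were Sprague-Dawley (Crl:CD(SD)) animals bought at 5 weeks of age and kept on a basal diet, with 1 one-colour Agilent array per rat. No cell type was sorted, so each value is an average over the cells of the cortex. In such tissue, fewer cells of a type and less RNA per cell cannot be told apart.

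Type I interferons are cytokines that cells release when they sense viral or self nucleic acids. Type I interferons act through a complex that holds STAT2 and IRF9 and binds an interferon-stimulated response element (ISRE) in the promoters of their targets. Interferon gamma acts largely through another element, the gamma-activated site (GAS). The targets include antiviral proteins and much of the class I pathway, in which an immunoproteasome cuts proteins, the TAP transporter carries the peptides into the endoplasmic reticulum, and a class I heavy chain with beta-2-microglobulin shows them at the surface. In the kidney, tubule cells, endothelium and resident leukocytes are all able to respond.

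Most of the members' promoter windows held letters that match the ISRE. In RefSeq's promoter windows of assembly GRCr8 (250 bases before to 50 after the start site), 27 of the 32 members had an entry. The ISRE core (GAAA, any 2 bases, GAAA), or its reverse (TTTC, any 2 bases, TTTC), was found in 19 of these 27 (70.4%), against 3.92% of all 33469 windows. The GAS core TTCNNNGAA, which reads the same on both strands, was found in 8 of 27 (29.6%), against 8.87% of all windows. Matches could overlap one another, and in 1 member an ISRE match overlapped a GAS match. The members were picked as interferon genes, so these shares describe the list and are not a result of the arrays, and a match shows only that the letters are there. Short stretches around the first match in 9 members are given below as examples from effectors, a regulator, a chemokine and presentation genes. They were picked from members with a match, so the letters fixed by the search are alike by construction. They run 5′ to 3′ along the gene, with every ISRE match in capitals.

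Ifi27 (chr6:128355128-128355167, strand +): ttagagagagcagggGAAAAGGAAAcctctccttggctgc
Oas1a (chr12:41330410-41330449, strand +): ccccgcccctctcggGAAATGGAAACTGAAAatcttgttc
Oas1b (chr12:41395887-41395926, strand -): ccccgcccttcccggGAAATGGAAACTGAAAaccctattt
Bst2 (chr16:18255074-18255113, strand -): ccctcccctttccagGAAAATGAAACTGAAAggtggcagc
Irf7 (chr1:205800068-205800107, strand -): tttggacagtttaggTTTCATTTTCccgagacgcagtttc
Cxcl10 (chr14:15988816-15988847, strand +): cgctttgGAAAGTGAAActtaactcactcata
Psmb10 (chr19:50743341-50743380, strand -): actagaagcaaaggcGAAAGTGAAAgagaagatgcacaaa
Tap1 (chr20:4668640-4668679, strand -): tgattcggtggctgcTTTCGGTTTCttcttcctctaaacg
Tap2 (chr20:4652313-4652352, strand -): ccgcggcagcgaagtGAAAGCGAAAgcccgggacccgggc

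In Oas1a, Oas1b and Bst2 a pair of matches overlapped, so that the capitals run on over a longer stretch. Oas1a and Oas1b, paralogs on chromosome 12, carried the same run of capitals, with the first match starting 41 and 59 bases before the start site. Tap1 and Psmb9 lie head to head on chromosome 20, and their windows shared 44 bases. The Tap1 match lay outside that shared stretch, and the Psmb9 window had no match of either kind. No ISRE match was found for Stat2, Irf9, Irf1, Irf8, Mx1, Oasl, Psmb9 and RT1-A2 in these windows, although Irf9, Irf1 and Irf8 held a GAS match. The 250 bases before the start of Ifi27 are printed because this gene varied widely from rat to rat, with its ISRE matches starting 169 and 84 bases before the start site.

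Ifi27 (chr6:128355062-128355311, strand +): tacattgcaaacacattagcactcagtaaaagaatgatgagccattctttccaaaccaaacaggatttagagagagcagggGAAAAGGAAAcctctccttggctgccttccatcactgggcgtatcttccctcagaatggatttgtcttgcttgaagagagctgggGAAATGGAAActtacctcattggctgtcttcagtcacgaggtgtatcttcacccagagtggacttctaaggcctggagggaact

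Those of Tap2 are printed because Tap2 was among the few members whose groups did not overlap. Its match started 41 bases before the start site.

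Tap2 (chr20:4652297-4652546, strand -): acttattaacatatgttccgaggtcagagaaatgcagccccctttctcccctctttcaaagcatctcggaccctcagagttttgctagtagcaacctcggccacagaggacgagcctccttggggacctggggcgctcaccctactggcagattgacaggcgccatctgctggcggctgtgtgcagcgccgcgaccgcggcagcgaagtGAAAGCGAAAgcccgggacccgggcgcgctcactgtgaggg

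Levels are given as log2 of the background-subtracted spot signal relative to the 75th percentile of its array, so that 0 marks a probe at that percentile. A level tells nothing about one gene against another, because probes differ in brightness. Between 39556 (control 3) and 43184 (control 2) probes were well above background per array, and control 3 had 34 spots with outlier flags against at most 4 elsewhere. The 8 proximal tubule markers and 5 podocyte markers looked up were well above background on all 6 arrays, and so were the 5 collecting duct markers that could be measured. All control arrays lay on 1 slide scanned in 1 run, and all DPG arrays on another slide and run. Slide or scan and treatment therefore cannot be told apart. The DPG 2 array stood apart in genes of the rat major histocompatibility complex, as described below.

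Of the 32 members, 29 had a probe well above background, and these 29 were so on all 6 arrays. Ifit1, an antiviral RNA-binding protein gene, had 1 probe, which was well above background on no array. The probe of Oasl, a relative of the oligoadenylate synthetases, was so on 2 of 3 arrays of each group and was not tested. For the other genes the brightest kept probe stands for the gene.

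No member differed between the groups past the threshold. With limma and Benjamini-Hochberg adjustment over 29647 features, 0 of 29 members had an adjusted p of at most 0.05, where 0% of all features did. The lowest adjusted p of a member was 0.417. At an unadjusted p of 0.05, 0 members were higher in DPG and 0 lower, where 6.68% of all features were higher and 5.7% lower. Of the 29 members, 19 had a log2 fold change (DPG over control) above 0 and 10 below. The median was 0.03, against 0.00 (0.0035) over all features. That median followed single rats. It was 0.15 without DPG 2, with 27 of 30 members then above 0, and 0.11 without control 2. Without DPG 1 it was -0.01, and without control 3, DPG 3 or control 1 it was 0.01, 0.01 and 0.03.

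For most members, as for most features, the size of the difference between the groups was bounded. None was at least 1.5-fold (0 of 29), where 4.36% of all features were. The 95% interval of the fold change lay within 1.5-fold in either direction for 22 of 29 members (75.9%), where this held for 71.8% of all features. Irf7, Irf8, Usp18, Ifi27, Cxcl10, Tap1 and RT1-A2 had wider intervals. The members differed more from rat to rat than the typical gene, with a median SD within groups of 0.20 (0.195, log2) against 0.14 (0.138) over all features. Their median absolute log2 fold change was 0.08, against 0.12 (0.115) over all features. In 24 of 29 members the difference between the groups was smaller than the range of the 3 control arrays. The share of all features for which this held was not computed, so the count marks no trait of the members.

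**Figure D1:**
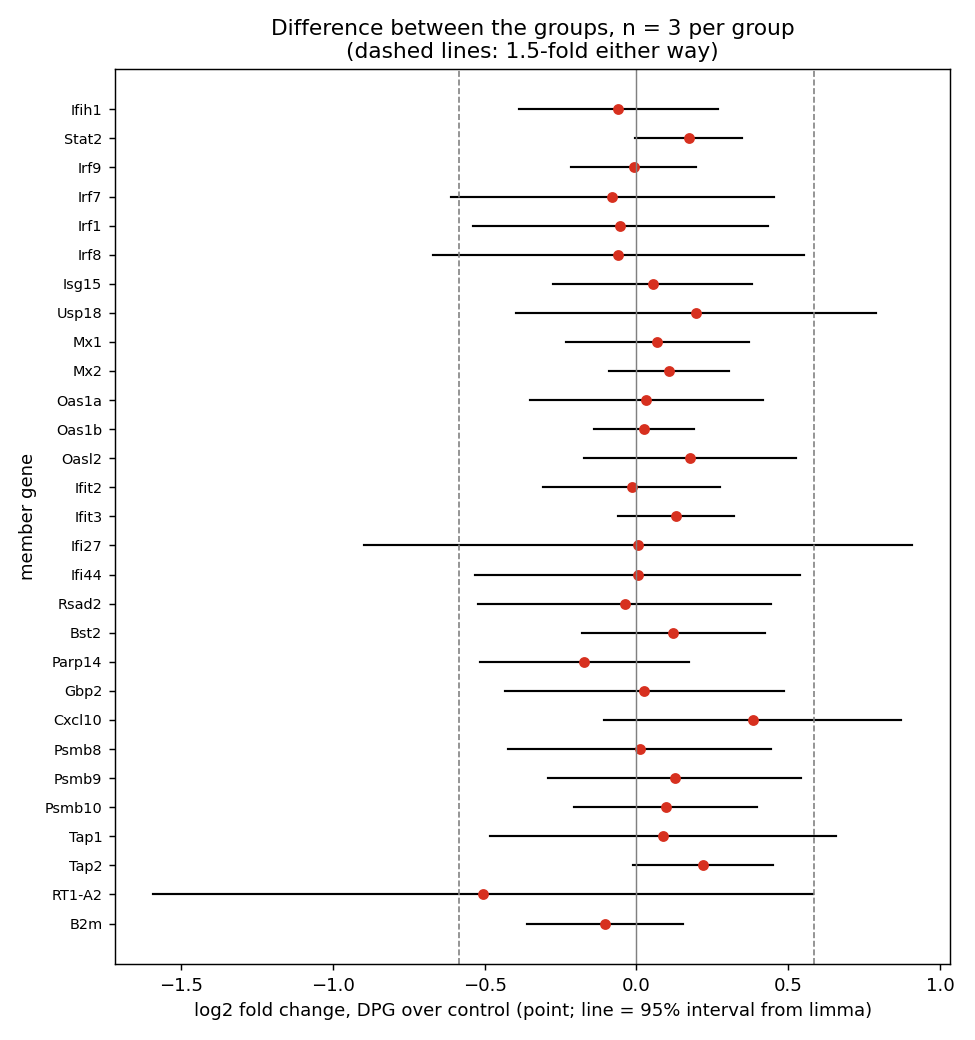
Log2 fold change of DPG over control for the 29 measured members, with the 95% interval from limma (n = 3 per group) and dashed lines at 1.5-fold. The intervals of all members include 0, those of Stat2 and Tap2 only just, and that of RT1-A2 is the widest.

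Among the sensors and transcription factors, Stat2 came nearest to a difference. Stat2 encodes a signal transducer of the type I interferon complex. Its control arrays read 2.13, 2.19 and 2.10, and its DPG arrays 2.29, 2.24 and 2.41. All DPG arrays lay above all control arrays. This put DPG over control at 0.17 ± 0.07 on the log2 scale (SE, n = 3 per group), which is 1.13-fold (limma adjusted p = 0.417). A second, dimmer probe also gave 0.17, but its groups overlapped. Groups that did not overlap were seen in 2 of 29 members, Stat2 and Tap2, both higher in DPG, where 19.7% of all features had such groups, 10.7% higher and 8.96% lower.

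The other members of this role lay close to 0, and their groups overlapped. Ifih1, which encodes the RNA sensor MDA5, had -0.06 ± 0.13 (SE). Irf9, the DNA-binding part of the type I complex, had -0.01 ± 0.08, and Irf1, a factor induced by interferon gamma, had -0.05 ± 0.20. Irf8, a factor of myeloid cells, had -0.06 ± 0.25. Irf7, the factor that amplifies type I interferon production, read 1.56, 1.71 and 1.05 in controls 1 to 3 and 1.61, 1.06 and 1.41 in DPG 1 to 3. Control 3 and DPG 2 were low and the other 4 arrays higher, whichever the treatment. The arrays of this gene, like those of the members below other than Ifit3, Cxcl10 and Tap2, are given because of values already seen.

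The antiviral effectors formed the largest role, with 15 of 18 genes measured. Of these, 12 had a log2 fold change above 0 and 3 below, with a median of 0.03 and a range from -0.17 to 0.20. Ifit3, a tetratricopeptide protein gene, had the lowest p among them. Its control arrays read -2.65, -2.61 and -2.57 and its DPG arrays -2.47, -2.59 and -2.38. DPG 1 and DPG 3 lay above the controls, and DPG 2 lay among them. The log2 fold change was 0.13 ± 0.08 (limma adjusted p = 0.546), it was 0.08 without DPG 3, and a dimmer probe read -0.02.

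Ifi27, a small interferon-induced membrane protein gene, had almost no difference between the groups and a wide spread within them. It read 4.65, 5.34 and 4.33 in controls 1 to 3 and 5.13, 4.12 and 5.08 in DPG 1 to 3. Each group thus spanned 1.01 on the log2 scale, while the log2 fold change was 0.01 ± 0.37. Its second probe gave the same order of the 6 arrays and a log2 fold change of -0.01. Control 2, DPG 1 and DPG 3 were the high arrays, and control 3 and DPG 2 the lowest.

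A like order of arrays was seen in some other effectors. Isg15, the ubiquitin-like protein that is joined to other proteins, read 0.84, 1.07 and 0.70 in controls and 1.05, 0.72 and 1.00 in DPG. Mx1, a dynamin-like GTPase that blocks viral replication, read 2.12, 2.39 and 2.14 in controls and 2.41, 2.08 and 2.36 in DPG. Gbp2, a guanylate-binding protein that acts against microbes inside cells, read 0.95, 1.49 and 1.30, then 1.43, 0.97 and 1.42. In these 3 genes control 2, DPG 1 and DPG 3 were the 3 highest arrays. Their log2 fold changes were 0.05 ± 0.13, 0.07 ± 0.12 and 0.03 ± 0.19.

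Usp18, the protease that removes ISG15 and restrains the interferon receptor, had a fold change of 0.20 ± 0.24. It ran from 0.0095 without control 3 to 0.41 without DPG 2, and was 0.068 and 0.11 without DPG 1 and DPG 3 and 0.31 without control 2. Its 3 probes ran from -0.20 to 0.20. Oasl2, an oligoadenylate synthetase-like gene, had 0.18 ± 0.14, with 0.088 without control 1, 0.105 without DPG 1 and 0.30 without DPG 2. Parp14, an ADP-ribosyltransferase, had the lowest value at -0.17 ± 0.14, and its 4 probes were all below 0, from -0.43 to -0.12. It was -0.06 without control 1, -0.08 without DPG 2 and -0.27 without DPG 3. On 2 of those probes all DPG arrays lay below all control arrays. Oas1a and Oas1b, whose family makes oligoadenylates on sensing double-stranded RNA, had 0.03 ± 0.16 and 0.03 ± 0.07.

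The remaining effectors were Mx2 (0.11 ± 0.08), Bst2 (0.12 ± 0.12), Ifi44 (0.00 ± 0.22), Ifit2 (-0.02 ± 0.12) and Rsad2 (-0.04 ± 0.20). Bst2 encodes tetherin, which holds budding virus at the cell surface, and Rsad2 encodes viperin, a radical enzyme. Like Ifi27, Isg15, Mx1 and Gbp2, Usp18, Oasl2 and Oas1b had control 2, DPG 1 and DPG 3 as their highest arrays. Mx2, Oas1a, Bst2, Parp14, Ifit2, Ifit3, Ifi44 and Rsad2 did not. Rsad2 read 0.96, 0.31 and 0.87 in controls and 0.67, 0.50 and 0.87 in DPG, with control 2 the lowest array. Of the 18 members with more than 1 kept probe, 5 had probes with fold changes of both signs.

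Cxcl10, the chemokine that draws CXCR3-bearing T cells, had the largest positive fold change of all members with the 6 arrays together. Its control arrays read -0.57, -0.06 and -0.13 and its DPG arrays 0.44, -0.14 and 0.08. DPG 1 and DPG 3 lay above every control, whereas DPG 2 lay below 2 of them, so the groups overlapped. The log2 fold change was 0.38 ± 0.20, a 1.30-fold step at a limma adjusted p = 0.495. Without DPG 1 it was 0.22, below Tap2 at 0.29, and without control 1 it was 0.22, below Usp18 at 0.27. The related Cxcl9, which is no member, had 0.89 ± 0.49 (adjusted p = 0.513). It was again higher in control 2 (-3.18), DPG 1 (-2.95) and DPG 3 (-2.72) than in control 1 (-4.54), control 3 (-4.56) and DPG 2 (-3.94).

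**Figure D2:**
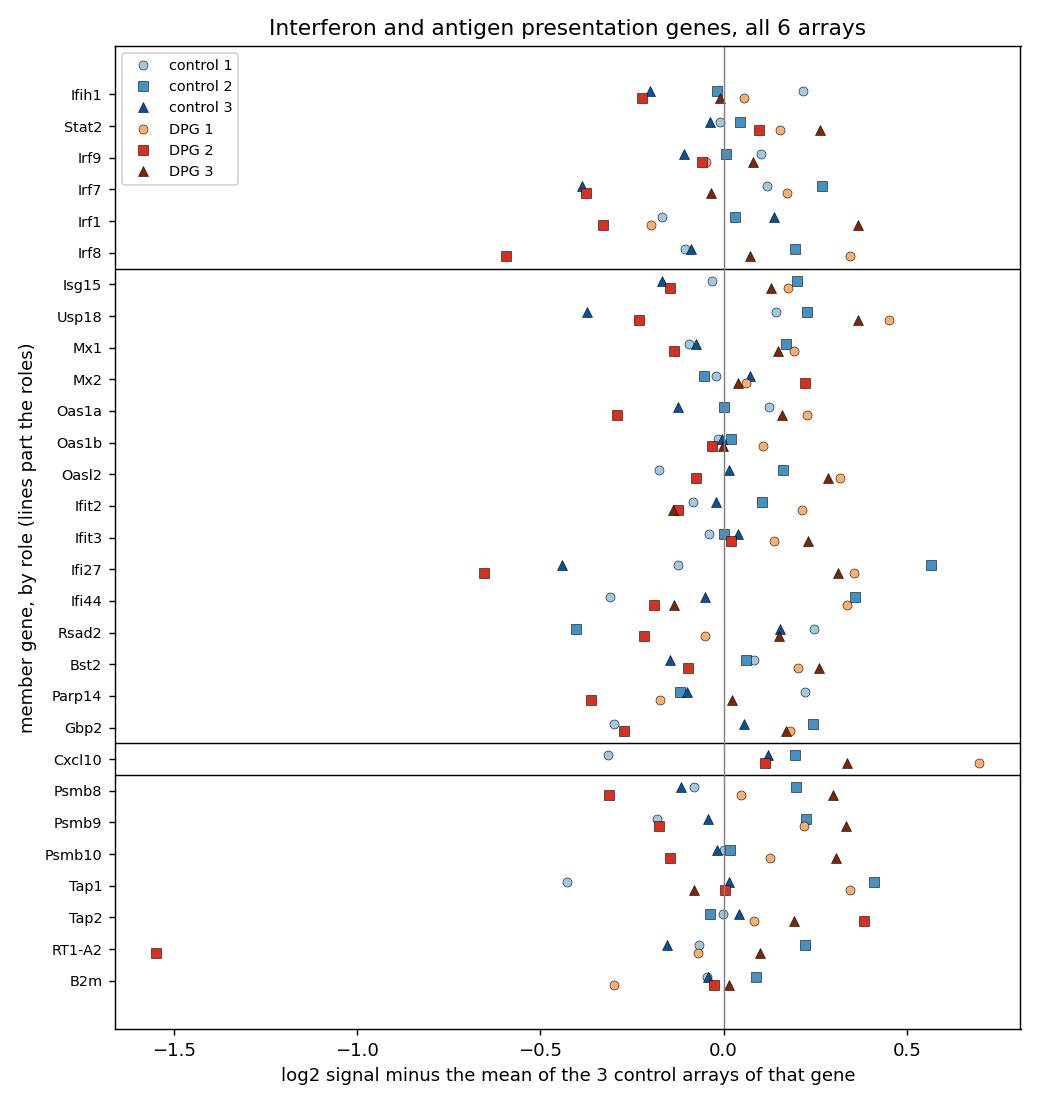
Log2 signal of each measured member on each array, minus the mean of its 3 control arrays (circles, squares and triangles are replicates 1, 2 and 3; blues are control, and orange, red and brown are DPG). The groups are mixed in most rows, DPG 2 lies at the low end of many, and the RT1-A2 probe of DPG 2 lies farthest out.

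In class I antigen presentation, 5 of 7 members had a log2 fold change above 0. Tap2, a subunit of the peptide transporter, read 0.61, 0.57 and 0.65 in controls and 0.69, 0.99 and 0.80 in DPG. All DPG arrays lay above the controls, and DPG 2 was the highest. The log2 fold change was 0.22 ± 0.09, a 1.16-fold step at a limma adjusted p = 0.423, and it was 0.14 without DPG 2. The second probe of Tap2 gave 0.19, with groups that did not overlap but lay close apart from DPG 2. It read -0.23, -0.22 and -0.30 in controls and -0.17, 0.18 and -0.19 in DPG. The windows of Tap2 and RT1-A2 both lie on chromosome 20, starting at bases 4652247 and 4872621. The partner subunit Tap1 had 0.09 ± 0.23, and its control arrays ran from -2.19 to -1.35.

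The immunoproteasome subunits Psmb8, Psmb9 and Psmb10 replace their constitutive counterparts when interferon is present. Their log2 fold changes were 0.01 ± 0.18, 0.13 ± 0.17 and 0.10 ± 0.12. Psmb9 read 1.07, 1.48 and 1.21 in controls and 1.47, 1.08 and 1.59 in DPG, with control 2, DPG 1 and DPG 3 again the highest arrays. The constitutive counterparts Psmb5, Psmb6 and Psmb7 had 0.09 ± 0.06, -0.0027 ± 0.07 and 0.05 ± 0.06. B2m, the light chain of class I, had -0.10 ± 0.11, and its 5 probes ran from -0.13 to -0.05.

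RT1-A2, a class I heavy chain gene, had the largest difference of all members, and it rested on 1 array. Its brighter probe read 3.75, 4.04 and 3.67 in controls and 3.75, 2.27 and 3.92 in DPG. DPG 2 was far below the other 5 arrays, which lay close together. The log2 fold change was -0.51 ± 0.44 (limma adjusted p = 0.675), and it was 0.02 without DPG 2. The second RT1-A2 probe went the other way. It read 2.90, 3.25 and 2.79 in controls and 3.06, 4.08 and 3.14 in DPG, so that DPG 2 was the highest array. A mean of both probes gave -0.03.

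All RT1 genes, RT1-A2 included, were then compared in the same way, a step chosen after RT1-A2 had been seen. The RT1 genes of the rat major histocompatibility complex encode class I and class II chains and are known to be highly variable between animals and alike in sequence. In DPG 2, 13 of 57 RT1 probes (22.8%) lay at least 1 log2 unit from the mean of the other 5 arrays, where 1.13% of all kept probes did. Of the 13, 7 were above and 6 below. Both RT1-A2 probes, which had prompted the step, are among the 13 (-1.555 and 1.045). In the other arrays 0 or 1 RT1 probe lay that far out. The probe of RT1-CE15 read -0.92 in DPG 2 and between -3.79 and -3.11 elsewhere, and one of RT1-CE16 read 4.61 against 2.47 to 2.82. A probe of RT1-CE5 read -2.48 against -1.74 to -1.01. Tapbp, which encodes the tapasin that loads class I, was at 0.66 in DPG 2 and between 0.13 and 0.28 elsewhere. Which transcripts these probes bind in each rat was not tested, and probes of so similar genes may share signal.

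**Figure D3:**
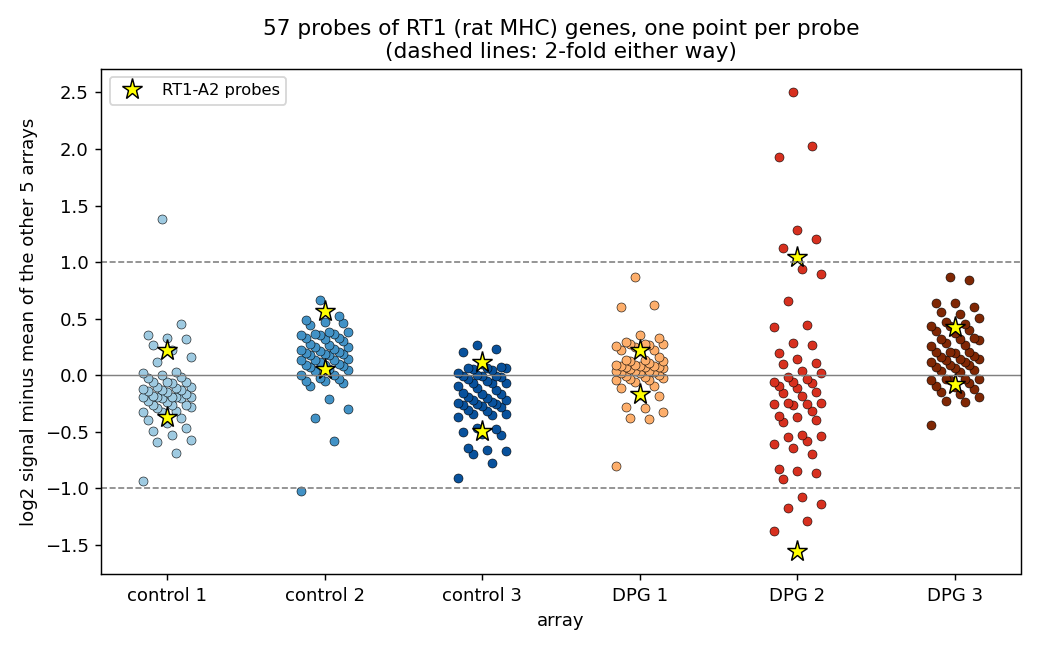
Log2 signal of 57 kept probes of 33 RT1 genes on each array, minus the mean of the other 5 arrays, with dashed lines at 2-fold and stars for the RT1-A2 probes. In DPG 2, 13 probes, both RT1-A2 probes among them, lie beyond the lines on both sides, against 0 or 1 in each other array.

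Over all 29 members, 1 place in each group was taken mostly by the same array. DPG 2 was the lowest of the DPG arrays for 24 members (82.8%), against 35.3% of all features. Control 2 was the highest control array for 19 members (65.5%), against 33.5% of all features. The other places were divided. The lowest control array was control 1 for 13 members and control 3 for 12, and the highest DPG array was DPG 1 for 15 and DPG 3 for 12. The mean of the members' log2 signal minus their control mean, used here as a score, was -0.05, 0.12 and -0.07 in controls 1 to 3. It was 0.15, -0.20 and 0.15 in DPG 1 to 3. DPG 1 and DPG 3 were thus the highest and DPG 2 the lowest of the 6 arrays, and control 2 lay near the high DPG arrays. Without RT1-A2 the DPG 2 score was -0.15. In the class I role it was -0.26 with RT1-A2 and -0.05 without, while the antiviral effectors stood at -0.17 and the sensors and factors at -0.25 in DPG 2.

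Macrophage, T cell and B and plasma cell markers had the same 3 highest arrays as the members, whereas NK cell and neutrophil markers did not. The 12 of 15 macrophage and monocyte markers that were measured had scores of -0.09, 0.09 and -0.00 in controls 1 to 3 and 0.18, -0.19 and 0.29 in DPG 1 to 3. For 8 of 10 T cell markers the scores were -0.34, 0.33 and 0.01 in controls and 0.57, -0.14 and 0.88 in DPG. In both lists DPG 3, DPG 1 and control 2 were the 3 highest arrays, as in the members. The proximal tubule markers ranged only from -0.05 to 0.09. Among 7 of 8 NK cell markers DPG 3 was the lowest array (-0.22). Among 4 of 8 dendritic cell markers control 2 was the lowest (-0.35) and DPG 2 lay at 0.21. Both values rested mainly on 1 dim Zbtb46 probe, which read -7.54 in control 2 and between -4.39 and -4.22 elsewhere. It was well above background in 2 of 3 controls, and a second probe gave a log2 fold change of -0.08. Clec9a and Batf3 read higher in control 2 than in DPG 2 (-2.83 against -3.81, -3.20 against -3.70). Ccr7 did not (-4.51 against -4.06). For 4 of 7 B and plasma cell markers control 2 (0.28), DPG 1 (0.14) and DPG 3 (0.09) were the highest and DPG 2 the lowest (-0.40). Only 2 of these 4 were well above background on all 6 arrays. In the 6 pan-leukocyte genes DPG 3 (0.23) and DPG 1 (0.11) were the highest and DPG 2 the lowest (-0.15), and control 3 (0.05) lay above control 2 (0.02). The 3 of 7 neutrophil markers measured read -0.53, -0.28 and 0.81 in controls and -0.67, -1.34 and -1.19 in DPG, with control 3 the highest array. The T cell receptor subunit genes Cd3d and Cd3g were well above background on all 6 arrays. Cd3e, with the largest difference of the T cell list (0.89 ± 0.34), was so in 2 of 3 controls and all 3 DPG arrays. It thus entered the T cell score only through the group where it was higher. The dendritic cell markers Flt3, Itgax and Siglech had no matched probe. The part of leukocyte number in the members' values was not tested.

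**Figure D4:**
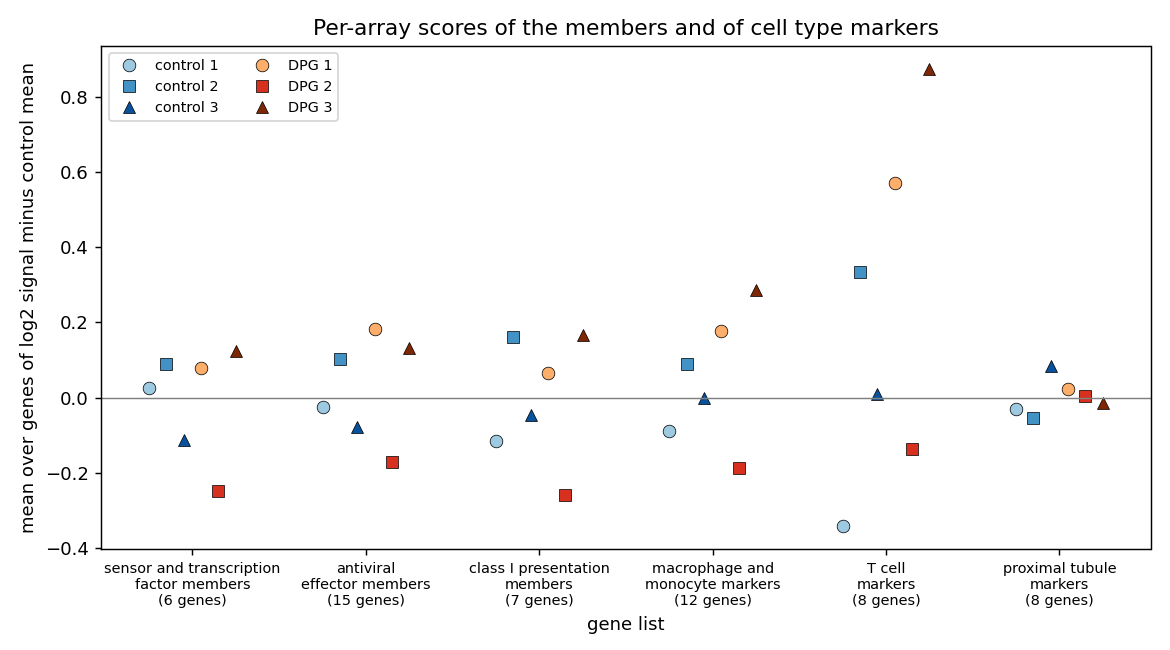
Per-array score of 3 roles of the members and of 3 marker lists, each the mean over genes of log2 signal minus the control mean (points are single arrays, with the number of genes under each list). Control 2, DPG 1 and DPG 3 lie high and DPG 2 low in the members and the macrophage list, while the proximal tubule markers lie near 0 in all arrays.

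Of the 3 interferon genes looked up, none could be measured. Ifna1 had no matched probe. The probes of Ifnb1 and Ifng, and those of the lambda receptor gene Ifnlr1, were well above background on no array. Of 27 genes for interferons, their receptors, sensors and signalling proteins, 19 were tested. At an unadjusted p of 0.05, 3 were higher and 1 lower in DPG, where 6.68% and 5.7% of all features were, and 0 passed the adjusted threshold. Of the 3 higher genes, Socs1 entered the test through its DPG arrays alone. Socs1, an inhibitor of JAK kinases that interferon induces, read -5.47, -5.41 and -5.66 in controls and -4.84, -5.04 and -4.98 in DPG. All DPG arrays, DPG 2 included, lay above the controls. The fitted difference was 0.56 ± 0.10 (limma adjusted p = 0.214). This dim probe cleared background in 2 of the 3 controls and in all 3 DPG rats, so it was tested only through the group where it was higher. The receptor subunit genes Il10rb and Ifngr1 had 0.28 ± 0.08 (adjusted p = 0.294) and 0.21 ± 0.08 (adjusted p = 0.392). Tbk1, the kinase that activates IRF3, had -0.24 ± 0.06 (adjusted p = 0.286), while its second probe read 0.03.

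Of 44 other interferon-stimulated genes, 31 were tested, with 16 above and 15 below 0 and a median of 0.0042. At an unadjusted p of 0.05, 0 were higher and 2 lower, where 6.68% and 5.7% of all features were. Parp9, a partner of the ubiquitin ligase DTX3L, was among those lower (-0.32 ± 0.12, limma adjusted p = 0.371). Ifitm2, a membrane protein that hinders viral entry, had 0.19 ± 0.08. In the other class I genes, 16 of 20 were tested and 0 had an unadjusted p of at most 0.05, against 12.4% of all features. RT1-N2 had -0.39 ± 0.17, Tapbp 0.22 ± 0.13 and RT1-S3 0.44 ± 0.26, each with DPG 2 as its most extreme array, while a dimmer RT1-S3 probe read -0.03. Of 11 class II genes, 9 were tested and 0 likewise. Ctss, a protease of the class II route, had 0.19 ± 0.11, RT1-Db1 0.22 ± 0.15 and RT1-DMb 0.12 ± 0.09. The 5 probes of RT1-Db1 ran from -0.23 to 0.57.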

How the data were processed

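Each of the 6 arrays held Cy3-labelled total RNA of 1 rat, per the labels' protocols. The deposited spot intensity was background-subtracted and spatially detrended by Agilent Feature Extraction (10.7.1.1 per the file headers, 10.7 per the submitters' processing notes). The deposited table of the whole series holds, per array, the ratio of that signal to a constant near the 75th percentile. Here log2 intensity had each array's 75th percentile subtracted. Probes well above background on all 3 arrays of a group were kept, less 23 with outlier flags, leaving 40383 probes. The brightest probe of a gene, named by accession in RefSeq's GRCr8 table, gave 29647 features. The test was limma 3.58.1 under R 4.3.3 (lmFit, eBayes; 4 residual and 1.95 prior degrees of freedom), with Benjamini-Hochberg adjustment over all features. An exact permutation test of 3 against 3 cannot go below p = 0.1. Simulated data of 29647 features recovered 32% of genes changed 1.5-fold and 66% of those changed 2-fold, with 6 false calls. The simulated noise was normal with limma's moderated spread, so these rates hold for that setting and may be too high for the real arrays.

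Members, roles and lists were chosen with earlier results of these data known. By rule, arrays were printed for members with non-overlapping groups, an unadjusted p of 0.05 or a 1.5-fold difference. The member with the lowest p per role was added. Arrays of Irf7, Ifi27, Isg15, Mx1, Gbp2, Rsad2, Psmb9 and RT1-A2 were printed outside this rule, once their values were known. Of each pathway list up to 3 genes with the lowest p were named. The constitutive proteasome list is given whole, and 1 gene of the other interferon-stimulated list is not reported here. Cxcl9, RT1-CE5, RT1-CE15 and RT1-CE16 were singled out once their values were known, as was Ifngr1. The alternatives were normexp (offset 50), median scaling, quantile normalization, other filters and probe rules, a variance trend, array weights, the replicate block, the deposited table and each rat left out. Normexp used each spot's median signal, since the planned mean signal is not among the columns used. Of the other marker lists, the median log2 fold change was -0.09 for NK cells, -0.26 for B and plasma cells, 0.33 for dendritic cells, 0.08 for pan-leukocyte genes, -0.10 for endothelium, -0.19 for podocytes and -0.15 for collecting duct.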

Additional observations from a re-analysis of the deposited data

How the results depend on the processing

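No member passed the adjusted threshold under any alternative that was run, and 0 features did except for 1 without control 2 and 1 without DPG 2. The count of members higher in DPG at an unadjusted p of 0.05 was 3 with normexp background correction (Mx2, Stat2 and Ifit3), 2 with an intensity trend and robust variance (Stat2 and Tap2) and 1 with median scaling (Stat2), against 0. It ranged from 0 to 1 with a rat left out. The count of members lower was 1 with normexp (Parp14), and from 0 to 1 with a rat left out, the 1 being Oasl, tested only without control 3. The members' median ranged from -0.0082 without DPG 1 to 0.15 (0.145) without DPG 2. The fold change of RT1-A2 ranged from -0.81 without DPG 3 to 0.015 (0.0155) without DPG 2, while Stat2, Ifit3, Cxcl10, Tap2, Parp14, Usp18 and Oasl2 kept their direction in all 18 alternatives. Their sizes moved: Usp18 ran from 0.0044 (mean of its probes) to 0.41, Parp14 from -0.30 to -0.06, Oasl2 from 0.088 to 0.30, Cxcl10 from 0.22 to 0.52, Ifit3 from 0.06 to 0.18, Tap2 from 0.14 to 0.29 and Stat2 from 0.13 to 0.21. The replicate block, the variance trend and the other filters left these fold changes as they were. Agreement over all 18 alternatives is thus weaker than the number implies. The run on every probe was read at the brightest probe of each gene. Dimmer probes below 0, of Ifit3 (-0.02) and Usp18 (-0.20), did not count there. Why the counts moved was not tested. With the replicate block, 0 members passed. Each number occurs once per group, so this block could not move the median of 0.03. The numbers do not pair the rats: deviations of same-numbered arrays correlated at -0.02, -0.09 and -0.07, and 0 of 6 arrays correlated best with their own number. A slide block could not be fitted, since each slide held 1 group. Dim probes such as those of Ifit1 and Oasl limit what can be measured.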
